A study of Mus musculus with 10 samples.

Results

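The genes described here encode 10 enzymes that make serine and pass its carbon on to folate. They were taken by symbol from a deposited table of intronic RPKM (a gene's intron reads scaled by the length of its introns and by the depth of the library) that lists 24901 genes, and each of the 10 stood on 1 line. The 5 cytosolic enzymes are Phgdh, Psat1, Psph, Shmt1 and Mthfd1, and the 5 mitochondrial ones are Shmt2, Mthfd2, Mthfd1l, Aldh1l2 and Gldc. The set was drawn up with earlier results of these data in view, in which Phgdh, Psat1 and Mthfd2 had already been seen to be lower in both Elongin A mutants, and the members were thus chosen by their RPKM in the mutants and EloA_WT. The contrasts of the mutants with EloA_WT, and of the mutants with each other, are therefore given as descriptions and not as tests.

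Nascent RNA of mouse embryonic stem cells was labelled with 2 mM bromouridine for 10 min, captured with an antibody and sequenced (Bru-seq), so that intron reads follow ongoing transcription. All cells were kept in serum medium with LIF and the inhibitors PD0325901 at 1 µM and CHIR99021 at 3 µM. The 10 samples form 5 groups of 2. In EloA_K754M and EloA_K754R, lysine K754 of Elongin A, which helps RNA polymerase II to elongate transcripts, is changed to methionine or arginine, and EloA_WT carries the wild-type protein. Eed_null is null for Eed, which the histone-methylating Polycomb complex PRC2 needs, by its titles and column name, while its genotype label reads EloA null, and CJ7_WT is a wild-type line. The labels do not say how many clones each mutant or null line comprises. The label for the parental line reads CJ7 for both mutants and CJ7_WT but CCE28 for EloA_WT and Eed_null. In each contrast with EloA_WT the line and the genotype therefore cannot be told apart. By that label the same holds between Eed_null and CJ7_WT, but the column name of Eed_null names CJ7, so its line is uncertain. The 6 Elongin A libraries have a column each, while Eed_null and CJ7_WT are given as 1 column of 2 combined samples. Nothing says that the samples were separate cultures, so p-values measure the spread between these samples only, which may be technical.

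Whole reads could be recovered from the steps of the RPKM values, and they came to between 26348262 and 38934604 intronic reads per library, 72390592 in pooled Eed_null and 86754158 in pooled CJ7_WT. All 10 enzyme genes averaged 0.1 RPKM or more over the 6 libraries, the filter that left 15161 genes tested. In the 6 single libraries the reads behind a value ran from 80 for Aldh1l2 in EloA_K754M replicate 1 to 19860 for Mthfd1l in EloA_WT replicate 1, and in the pooled columns from 392 for Aldh1l2 in Eed_null to 45077 for Mthfd1l in CJ7_WT. Introns of Eed read 7.97 RPKM in Eed_null and 10.0 RPKM in CJ7_WT, and since the labels do not give the site of the deletion, this does not check the line. Tceb3, the gene of Elongin A, had 1.46 and 1.98 RPKM in EloA_K754M, 1.12 and 1.30 RPKM in EloA_K754R, and 1.83 and 2.03 RPKM in EloA_WT. Stem cell markers were present in every group, with Pou5f1 between 7.45 and 36.5 RPKM and Nanog between 18.0 and 39.1 RPKM over the 8 columns. Embryonic fibroblast markers, included because the growth protocol names feeder cells, summed over 26 genes to 25.0 to 28.4 RPKM in EloA_K754M, 27.7 to 31.2 RPKM in EloA_K754R, 20.0 to 20.5 RPKM in EloA_WT, 27.6 RPKM in Eed_null and 28.6 RPKM in CJ7_WT, and none of them was at 0 throughout a group. All 19 tested fibroblast markers had positive changes in both mutants against EloA_WT, with a median log2 change of 0.41 in EloA_K754M and 0.55 in EloA_K754R, and Tnc passed the test upward in EloA_K754R (log2 change 0.82, limma adjusted p = 0.0438). Their part in the values below was not tested. In such bulk samples a lower share of a cell type and less RNA per cell cannot be told apart.

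Cells make serine from the glycolytic intermediate 3-phosphoglycerate in 3 steps catalysed by Phgdh, Psat1 and Psph. Serine hydroxymethyltransferases then split serine into glycine and a one-carbon unit carried by tetrahydrofolate, Shmt1 in the cytosol and Shmt2 in mitochondria. In mitochondria Mthfd2 and Mthfd1l oxidise that unit and release formate, Aldh1l2 oxidises it to carbon dioxide, and in the cytosol Mthfd1 takes the formate back up for purine and thymidylate synthesis. Gldc is the decarboxylase of the glycine cleavage system, which yields a one-carbon unit from glycine. Many of these genes are known targets of the transcription factor Atf4, which is induced when amino acids run short, and embryonic stem cells are known for a high demand for one-carbon units.

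Promoter sequences (RefSeq, GRCm38.p6, from 250 bases before to 50 after the annotated start) were at hand for 9 of the 10 genes, all but Aldh1l2, with 2 windows for Psat1. Phgdh and Mthfd2 are shown because their levels differed most between the mutants and EloA_WT, Psph because it held the other motif match, and Mthfd1 because its level differed least. Capitals mark matches to TGACNNNGC, the core of the antioxidant response element, on either strand.
Phgdh, chr3:98339920-98340219, minus strand: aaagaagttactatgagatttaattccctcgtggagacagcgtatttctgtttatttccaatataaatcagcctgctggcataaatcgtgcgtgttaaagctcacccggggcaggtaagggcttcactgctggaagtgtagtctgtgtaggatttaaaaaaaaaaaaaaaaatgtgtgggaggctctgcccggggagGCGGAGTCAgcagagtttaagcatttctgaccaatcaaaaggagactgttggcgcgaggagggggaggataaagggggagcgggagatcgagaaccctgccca
Psph, chr5:129787204-129787503, minus strand: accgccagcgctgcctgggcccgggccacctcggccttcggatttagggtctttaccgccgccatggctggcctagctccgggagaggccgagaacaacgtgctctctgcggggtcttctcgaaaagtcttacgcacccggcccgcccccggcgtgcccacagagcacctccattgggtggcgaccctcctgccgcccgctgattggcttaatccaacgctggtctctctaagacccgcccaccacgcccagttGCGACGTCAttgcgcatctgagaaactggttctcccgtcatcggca
Mthfd2, chr6:83317555-83317854, minus strand: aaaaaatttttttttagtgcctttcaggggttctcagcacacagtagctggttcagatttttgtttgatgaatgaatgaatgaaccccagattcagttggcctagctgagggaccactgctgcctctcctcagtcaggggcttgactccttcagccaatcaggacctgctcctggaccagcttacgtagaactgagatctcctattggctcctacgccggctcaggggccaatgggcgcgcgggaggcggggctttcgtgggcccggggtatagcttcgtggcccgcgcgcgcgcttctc
Mthfd1, chr12:76254982-76255281, plus strand: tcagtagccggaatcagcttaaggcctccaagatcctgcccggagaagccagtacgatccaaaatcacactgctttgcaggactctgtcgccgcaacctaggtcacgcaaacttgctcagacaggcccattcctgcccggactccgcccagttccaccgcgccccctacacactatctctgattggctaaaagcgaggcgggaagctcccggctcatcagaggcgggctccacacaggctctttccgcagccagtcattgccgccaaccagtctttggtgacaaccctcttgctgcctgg
Among the 10 windows of these genes, TGACNNNGC was found in 2, those of Phgdh and Psph, against 12.4% of 32544 promoter windows. The C/EBP-ATF response element core TGATGNAA, the element that Atf4 binds, was found in none of the 10 windows and in 3.91% of all windows, and the E-box CACGTG in none of the 10 and in 7.17% of all. Both strands were searched, a match is only a match of letters, and nothing follows about a factor from its absence in a window of this size.

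The serine synthesis genes stood at well under the EloA_WT level in both mutants. Phgdh, the first and committed enzyme of the pathway, had 0.468 and 0.348 RPKM in EloA_K754M, 0.801 and 0.586 RPKM in EloA_K754R, and 2.68 and 2.43 RPKM in EloA_WT. All 4 mutant libraries lay under both EloA_WT libraries, at 16.0% of the EloA_WT mean in EloA_K754M and 27.2% in EloA_K754R. Its log2 change was −2.39 (SE 0.20) in EloA_K754M and −1.75 (SE 0.20) in EloA_K754R, on the scale of RPKM plus 0.1, as for all log2 changes here. Psat1, the aminotransferase of the second step, had 1.28 and 1.13 RPKM in EloA_K754M, 1.19 and 1.37 RPKM in EloA_K754R, and 3.67 and 3.69 RPKM in EloA_WT. Its log2 changes were −1.54 in EloA_K754M and −1.46 in EloA_K754R (SE 0.13 each), which put the level at 32.7% and 34.8% of the EloA_WT mean. Psph, the phosphatase that releases serine, had 0.50 and 0.529 RPKM in EloA_K754M, 0.341 and 0.403 RPKM in EloA_K754R, and 0.876 and 0.818 RPKM in EloA_WT. Here too no mutant library reached the lower EloA_WT library, and the difference was smaller, at log2 changes of −0.62 and −1.01 (SE 0.16 each).

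**Figure D1:**
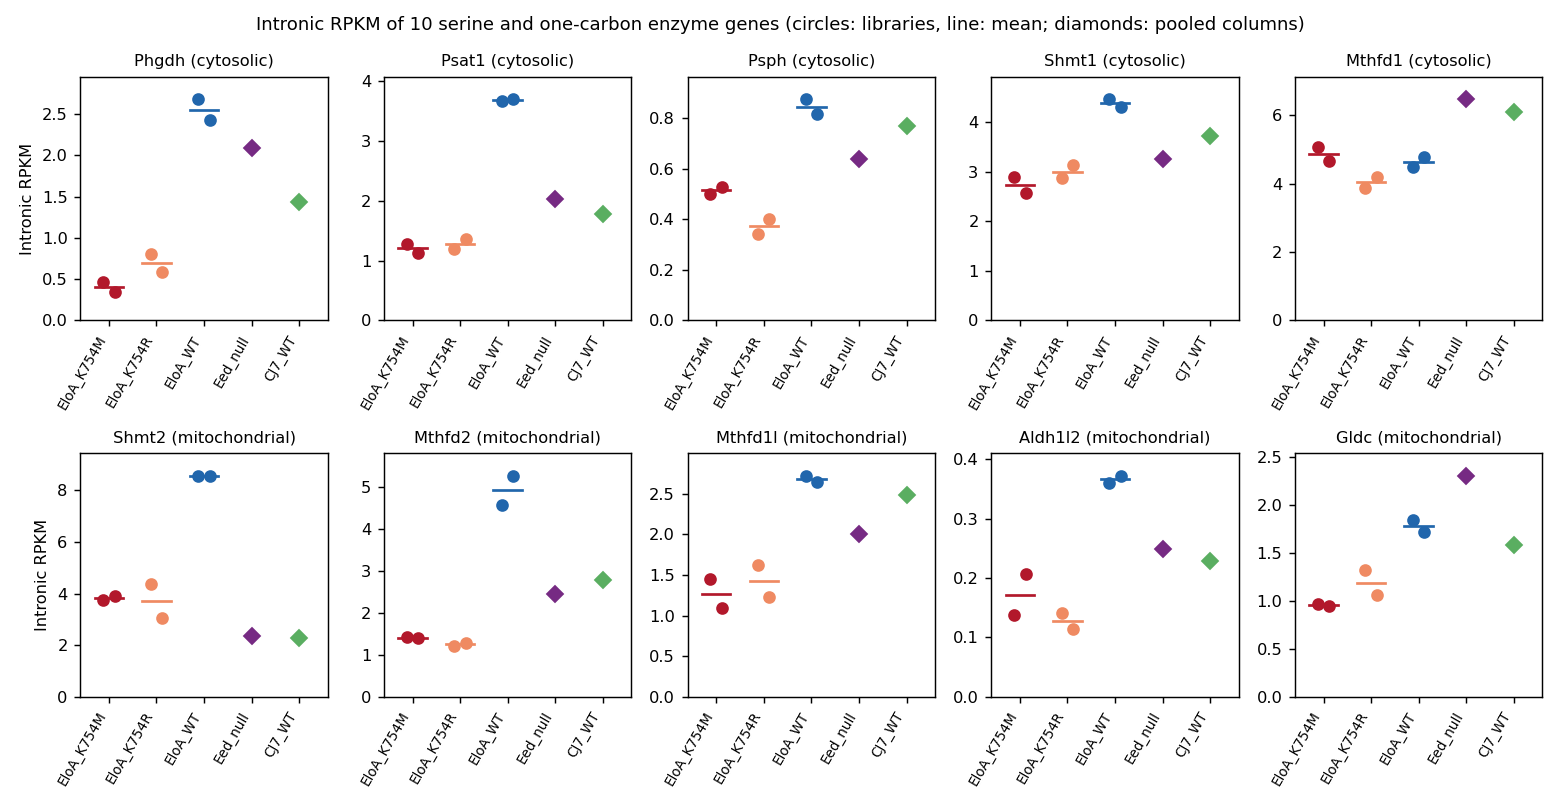
Intronic RPKM of each enzyme gene (vertical axes from 0, in RPKM) in EloA_K754M, EloA_K754R, EloA_WT, Eed_null and CJ7_WT; circles are single libraries with their mean as a line, and diamonds are pooled columns. In 9 of the 10 panels all 4 mutant libraries lie below both EloA_WT libraries, and Mthfd1 is the exception.

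The mitochondrial enzymes also stood below EloA_WT in all 4 mutant libraries. Mthfd2, the mitochondrial dehydrogenase and cyclohydrolase, had 1.43 and 1.40 RPKM in EloA_K754M, 1.21 and 1.29 RPKM in EloA_K754R, and 4.58 and 5.28 RPKM in EloA_WT. It was at 28.7% and 25.4% of the EloA_WT mean, the lowest share among the mitochondrial genes in either mutant, with log2 changes of −1.73 and −1.89 (SE 0.12 each). Shmt2, the mitochondrial serine hydroxymethyltransferase, had 3.77 and 3.90 RPKM in EloA_K754M, 4.36 and 3.06 RPKM in EloA_K754R, and 8.58 and 8.57 RPKM in EloA_WT. In EloA_WT it had the highest level of the 10 genes, and in the mutants it was at 44.7% and 43.2% of that mean, with log2 changes of −1.14 and −1.21 (SE 0.18 each). Mthfd1l, which releases mitochondrial formate, had 1.45 and 1.09 RPKM in EloA_K754M, 1.62 and 1.23 RPKM in EloA_K754R, and 2.72 and 2.64 RPKM in EloA_WT. The 2 libraries of each mutant were further apart for this gene than for Mthfd2, yet all 4 lay under EloA_WT. Aldh1l2 was the weakest transcribed of the set, with 0.138 and 0.206 RPKM in EloA_K754M, 0.142 and 0.114 RPKM in EloA_K754R, and 0.361 and 0.373 RPKM in EloA_WT. Its log2 changes of −0.79 and −1.04 (SE 0.23 each) are held down by the offset of 0.1, since its level was at 47.0% and 34.8% of the EloA_WT mean. Gldc had 0.972 and 0.948 RPKM in EloA_K754M, 1.32 and 1.06 RPKM in EloA_K754R, and 1.84 and 1.72 RPKM in EloA_WT, which is 53.9% and 66.8% of the EloA_WT mean.

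The cytosolic folate enzymes kept the highest share of the EloA_WT mean, at 62.2% and 68.4% for Shmt1 and at 105% and 87.2% for Mthfd1. Only Mthfd1 stood clearly apart, since Psph was at 60.8% in EloA_K754M and Gldc at 66.8% in EloA_K754R. On the log2 scale Psph, at −0.62 in EloA_K754M, was closer to EloA_WT than Shmt1. Shmt1 had 2.89 and 2.57 RPKM in EloA_K754M, 2.88 and 3.13 RPKM in EloA_K754R, and 4.47 and 4.32 RPKM in EloA_WT, with log2 changes of −0.67 and −0.53 (SE 0.12 each). Shmt1 lies on chromosome 11, whose 1313 other tested genes had a median log2 change of −0.46 in EloA_K754M and −0.56 in EloA_K754R. None of the other 9 genes lies on that chromosome, and the medians of their own chromosomes were between −0.06 and 0.01 in EloA_K754M and between −0.19 and −0.10 in EloA_K754R. Mthfd1, the cytosolic enzyme with 3 activities that assembles one-carbon units from formate, had 5.07 and 4.66 RPKM in EloA_K754M, 3.89 and 4.19 RPKM in EloA_K754R, and 4.49 and 4.77 RPKM in EloA_WT. Its EloA_K754M and EloA_WT libraries overlapped, while both EloA_K754R libraries lay under EloA_WT, with log2 changes of 0.07 in EloA_K754M and −0.19 in EloA_K754R (SE 0.11 each).

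Over the 10 genes the median log2 change was −0.93 in EloA_K754M and −1.02 in EloA_K754R, beside −0.06 and −0.14 over all 15161 tested genes. Of the 10, 9 had both EloA_K754M values below both EloA_WT values, beside 27.2% of all tested genes, and all 10 had both EloA_K754R values below, beside 38.8%. For 9 of them, all but Mthfd1, all 4 mutant values were below both EloA_WT values, beside 18.8% of genes. In limma's test with Benjamini-Hochberg adjustment over all genes, 3 of the 10 (Phgdh, Psat1 and Mthfd2) passed the threshold of 0.05 downward in EloA_K754M, where 0.204% of all genes did and 0.218% passed in either direction. In EloA_K754R 5 passed it downward (Phgdh, Psat1, Psph, Shmt2 and Mthfd2), where 2.79% of all genes did and 3.48% passed in either direction. These contrasts were known when the genes were chosen, so the counts carry no weight beyond description. The count of 3 became 0 in each of the 6 fits that left out 1 library, and the count of 5 became 0 in 5 of them and 2 without EloA_K754M replicate 2. Limma's voom on the recovered reads passed 7 of the 10 downward in EloA_K754M, where it passed 1.61% of all genes downward, and 9 in EloA_K754R, where it passed 6.42%.

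**Figure D2:**
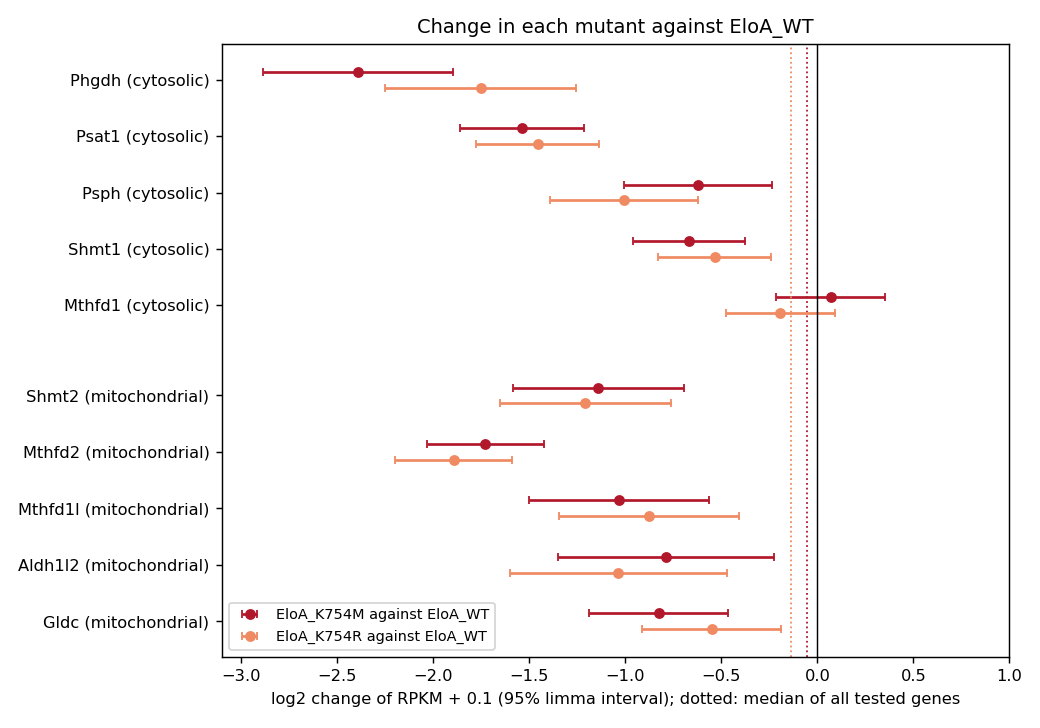
Log2 change of RPKM plus 0.1 (horizontal axis) of each gene in EloA_K754M and EloA_K754R against EloA_WT, with 95% intervals from limma; dotted lines are the medians of all tested genes, −0.06 and −0.14. The changes run from −2.39 for Phgdh in EloA_K754M to 0.07 for Mthfd1 in EloA_K754M.

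Grouping by compartment gave no steady difference. The mitochondrial genes had a median log2 change of −1.03 in EloA_K754M and −1.04 in EloA_K754R, and the cytosolic genes −0.67 and −1.01. By library, the mitochondrial median minus the cytosolic one was −0.31 and −0.37 in EloA_K754M, and 0.15 and −0.21 in EloA_K754R, where the 2 libraries had opposite signs. In EloA_WT it was −0.02 and 0.02. The pooled SD between replicates was 0.15, and most of it came from EloA_K754R. The ranges of the 2 compartments overlapped in both mutants. In EloA_K754M the most negative change was that of cytosolic Phgdh, in EloA_K754R that of mitochondrial Mthfd2, and cytosolic Mthfd1 was closest to 0 in both. Split by role instead, a division made after the values were seen, serine synthesis had medians of −1.54 and −1.46, the 4 mitochondrial folate enzymes −1.09 and −1.12, and the 2 cytosolic folate enzymes −0.30 and −0.36. Mitochondrial minus cytosolic folate enzymes was then −0.79 in EloA_K754M and −0.76 in EloA_K754R, and this rests on Shmt1 and Mthfd1 as the only cytosolic genes.

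Related enzymes of both compartments were also compared within each library. Shmt2 had 1.30 and 1.52 times the RPKM of Shmt1 in EloA_K754M, 1.52 and 0.975 times in EloA_K754R, and 1.92 and 1.99 times in EloA_WT. In every mutant library the ratio was under both EloA_WT values, and in EloA_K754R replicate 2 the pair were level. The same ratio was 0.716 in Eed_null and 0.609 in CJ7_WT, where the cytosolic gene was the higher one. Mthfd1l had 0.286 and 0.234 times the RPKM of Mthfd1 in EloA_K754M, 0.416 and 0.295 times in EloA_K754R, and 0.606 and 0.554 times in EloA_WT. It had 0.309 times in Eed_null and 0.409 times in CJ7_WT, so for this pair the pooled columns fell within the range of the mutant libraries. On the opposite strand, Smcr8 overlaps Shmt1, Ndufa4l2 overlaps Shmt2, Cct6a overlaps Psph and D10Wsu102e overlaps Aldh1l2 (GENCODE vM21), and the use of strand in the counting is not given in the sources used here, so their reads may not be separated. Other annotated genes that overlap members have no RPKM values here. Gm43890 lies on the same strand as Mthfd2, and Gm16074 and Gm25515 on the same strand as Mthfd1l. At Psat1, Shmt1, Mthfd1 and Gldc such genes lie on the opposite strand. Smcr8 had 2.60 and 1.87 RPKM in EloA_K754M, 2.41 and 2.66 RPKM in EloA_K754R, and 4.11 and 3.93 RPKM in EloA_WT. Ndufa4l2 had 0.216 and 0.211 RPKM in EloA_K754M, 0.393 and 0.146 RPKM in EloA_K754R, and 1.20 and 0.586 RPKM in EloA_WT. Both were lower in the mutants, as Shmt1 and Shmt2 were, and Smcr8 shares chromosome 11 with Shmt1. Cct6a had log2 changes of −0.16 in EloA_K754M and −0.24 in EloA_K754R, and D10Wsu102e had −0.26 and −0.23. The part of these overlapping genes was not tested.

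**Figure D3:**
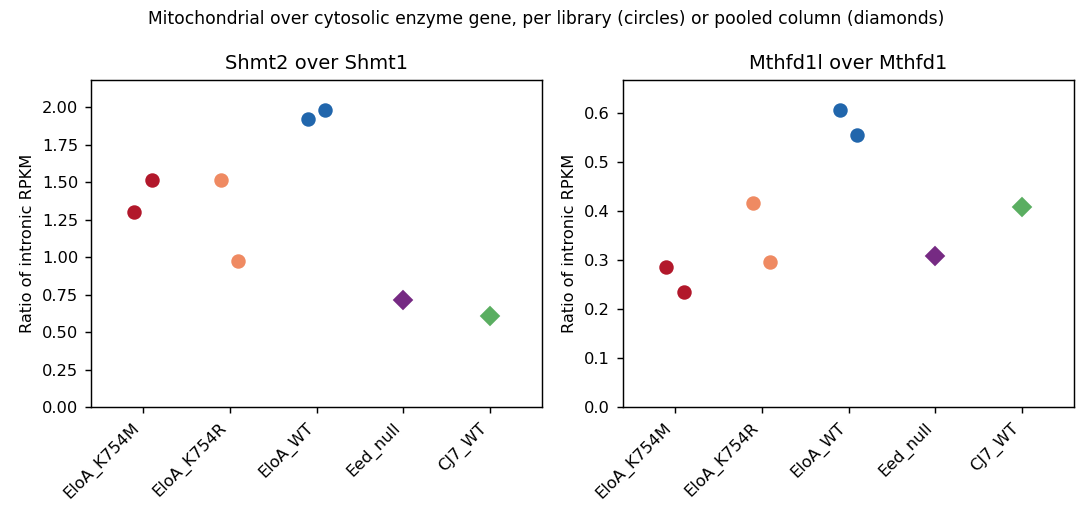
Ratio of intronic RPKM of the mitochondrial over the cytosolic gene (vertical axes from 0) for Shmt2 over Shmt1 and Mthfd1l over Mthfd1; circles are single libraries and diamonds pooled columns. Both ratios are higher in the 2 EloA_WT libraries than in any other column.

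The comparison of EloA_K754M with EloA_K754R asks whether the 2 substitutions differ. It uses mutant values that also entered the choice of genes. Genes already seen to be lower in both mutants may differ less between them, so the counts and p-values here are descriptions too. Limma passed none of the 10 genes, and 0.290% of all tested genes in either direction. Limma's unadjusted p was under 0.05 for 1 of the 10 (Phgdh), beside 2806 of all 15161 tested genes. Voom passed none of the 10, beside 456 of 14832 genes. Phgdh was lower in EloA_K754M, with a log2 difference of −0.64 (95% interval −1.14 to −0.14, limma adjusted p = 0.188), and the 2 mutants' libraries did not overlap. Over all alternatives its adjusted p lay between 0.0648 and 0.556. Psph was higher in EloA_K754M by 0.38 (−0.00 to 0.77, limma adjusted p = 0.271), and Mthfd1 by 0.26 (−0.02 to 0.55, limma adjusted p = 0.298). Gldc differed by −0.28 (−0.64 to 0.08, limma adjusted p = 0.376) and Mthfd2 by 0.17 (−0.14 to 0.47, limma adjusted p = 0.523). These 5 genes had libraries that did not overlap between the mutants, a share close to the 50.5% of all tested genes for which that held. For Psat1, Shmt1, Shmt2, Mthfd1l and Aldh1l2 the differences were between −0.16 and 0.25, with limma adjusted p from 0.594 to 0.877, and the intervals reached from −0.62 to 0.81, so differences of that size were not shown to be absent.

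Set beside CJ7_WT, which shares the mutants' line label, the mutants were again lower for most genes. All 4 mutant libraries lay under the pooled CJ7_WT value for 9 of the 10 genes, beside 23.4% of all tested genes. The pooled column has no replicates, and the mutant values are those already compared with EloA_WT, so this adds no test. Phgdh in CJ7_WT was 1.44 RPKM, Psat1 1.78 RPKM, Psph 0.769 RPKM, Mthfd2 2.78 RPKM, Mthfd1l 2.49 RPKM, Aldh1l2 0.228 RPKM and Gldc 1.58 RPKM, each between the highest mutant and the lowest EloA_WT library, as was Shmt1 at 3.72 RPKM. For 8 genes CJ7_WT thus took a middle place, which 2.39% of all tested genes did. That place requires all 4 mutant values to lie below both EloA_WT values, and the genes were chosen by those values. Of the 2849 tested genes that met this condition, 362 had CJ7_WT in between. Shmt2 broke the order, since CJ7_WT at 2.26 RPKM was below all 4 mutant libraries, a place that 36.7% of all tested genes had, and at 26.4% of the EloA_WT mean. Mthfd1 broke it the other way, at 6.08 RPKM in CJ7_WT and above all 6 Elongin A libraries, while for the other 9 genes CJ7_WT was below both EloA_WT libraries, beside 53.1% of all tested genes. For Psph, Shmt1, Mthfd1l and Gldc CJ7_WT stood at 84.7% to 92.7% of the EloA_WT mean, and for Phgdh, Psat1, Mthfd2 and Aldh1l2 at 48.3% to 62.2%.

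Eed_null was set against CJ7_WT with 1 pooled column each and no replicate check, for samples whose title and genotype label conflict. The ratio of Eed_null over CJ7_WT was above 1 for 6 of the genes and below 1 for 4. Of all 15161 tested genes it was above 1 for 9044 and below 1 for 5955. With library medians made equal, the log2 ratios of Mthfd1 and Shmt2 turned to −0.0024 and −0.04, which leaves 4 above and 6 below. Phgdh had 2.09 RPKM in Eed_null and 1.44 RPKM in CJ7_WT, a ratio of 1.46 (exact 95% interval for counting error 1.37 to 1.56, from 2044 and 1677 reads). Gldc had 2.31 RPKM in Eed_null and 1.58 RPKM in CJ7_WT, also a ratio of 1.46 (1.42 to 1.496). Of the 10 genes, these 2 were past 1.25-fold upward on the scale of RPKM plus 0.1, a size that 28.4% of all tested genes exceeded. Psat1 had a ratio of 1.14, Aldh1l2 of 1.09, Mthfd1 of 1.06 and Shmt2 of 1.03, while Mthfd2 had 0.887, Shmt1 0.879, Psph 0.830 and Mthfd1l 0.804. None of the 10 was past 1.25-fold downward, which 13.5% of all tested genes were. Both compartments held genes on either side of 1, with a mitochondrial median log2 ratio of 0.04 and a cytosolic one of 0.09, beside 0.09 over all tested genes. For Shmt2 and Aldh1l2, on 568 and 392 reads in Eed_null, the counting interval included 1.

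**Figure D4:**
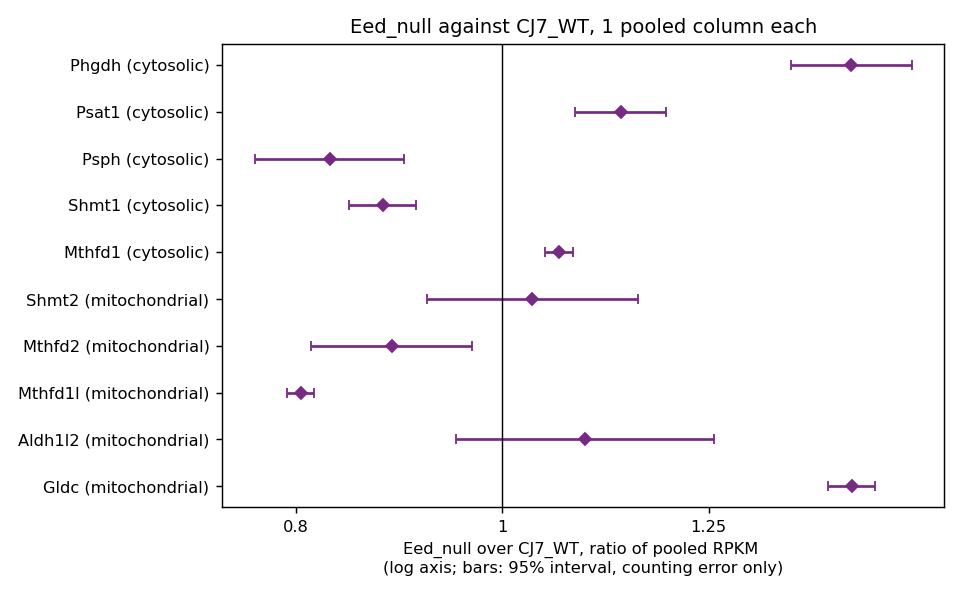
Ratio of pooled RPKM in Eed_null over CJ7_WT for each gene (horizontal axis, logarithmic), with exact 95% intervals that cover counting error only. Phgdh and Gldc lie at 1.46, Mthfd1l lies at 0.804, and the intervals of Shmt2 and Aldh1l2 include 1.

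Genes next to these enzymes in metabolism were examined through lists written with the earlier results known, to be read beside the 0.204% and 2.79% of all tested genes that fell in EloA_K754M and EloA_K754R. Among 7 tested cytosolic folate cycle genes, none passed in EloA_K754M and 1 fell in EloA_K754R (median log2 changes −0.05 and −0.37). It was Mthfs, which recycles 5-formyl folate, with 0.904 and 0.743 RPKM in EloA_K754M, 0.339 and 0.404 RPKM in EloA_K754R, and 1.12 and 0.939 RPKM in EloA_WT (log2 change −1.26 in EloA_K754R, limma adjusted p = 0.0354). Of the 8 other mitochondrial one-carbon and glycine cleavage genes none passed in either mutant, and their medians were −0.17 and 0.02. Dmgdh, which demethylates dimethylglycine, and Mthfd2l, the close relative of Mthfd2, had the largest changes in this list and did not pass. Mthfd2l had 0.0864 and 0.172 RPKM in EloA_K754M, 0.135 and 0.161 RPKM in EloA_K754R, and 0.0578 and 0.0775 RPKM in EloA_WT, so that it was higher in each mutant library and low in all. Dmgdh had log2 changes of −0.83 and −0.98 (limma adjusted p = 0.218 and 0.0914).

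Of 4 folate uptake genes, Folr2, a folate receptor, rose in EloA_K754R, with 0.492 and 0.399 RPKM there and 0.134 and 0.158 RPKM in EloA_WT (log2 change 1.15, limma adjusted p = 0.0426). Over all 15161 tested genes, 104 rose in EloA_K754R. Folr2 was higher still in EloA_K754M, at 0.668 and 0.760 RPKM, without passing (log2 change 1.73, limma adjusted p = 0.051). In CJ7_WT it had 0.430 RPKM. Of 8 methionine cycle and transsulfuration genes, Cth, which makes cysteine from cystathionine, fell in EloA_K754R to 2.02 and 2.02 RPKM, against 5.21 and 5.38 RPKM in EloA_WT (−1.35, limma adjusted p = 0.0234), and the list's medians were −0.65 and −0.75. Of 6 purine synthesis genes only Pfas, on chromosome 11, fell in EloA_K754R (−0.69, limma adjusted p = 0.0421), and the medians were −0.11 and −0.16. Of 7 genes that use serine, Sars, the cytosolic seryl-tRNA synthetase, was the only one past the threshold. It fell to 1.78 and 1.67 RPKM in EloA_K754M and to 1.97 and 1.90 RPKM in EloA_K754R, against 3.71 and 3.59 RPKM in EloA_WT (−1.04 and −0.88, limma adjusted p = 0.0490 and 0.0315). None of 5 lower glycolysis genes, which supply the substrate of Phgdh, passed in either mutant, with medians of −0.21 and 0.12. Among genes that did not pass, Bhmt2, a methyltransferase that makes methionine, had log2 changes of −0.9957 and −1.03 (limma adjusted p = 0.156 and 0.0764), and Slc46a1, the proton-coupled folate transporter, had −1.03 and −0.39 (limma adjusted p = 0.197 and 0.458). The log2 changes of Gart, Srr, Gapdh and Eno1, which likewise did not pass, lay between −0.66 and 0.18. Slc46a1 and Srr lie on chromosome 11, as Pfas does. Calls in these lists rest on all 6 libraries: over all genes, the 33 calls in EloA_K754M became 2 to 59 and the 527 in EloA_K754R became 0 to 64 without 1 library.

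**Figure D5:**
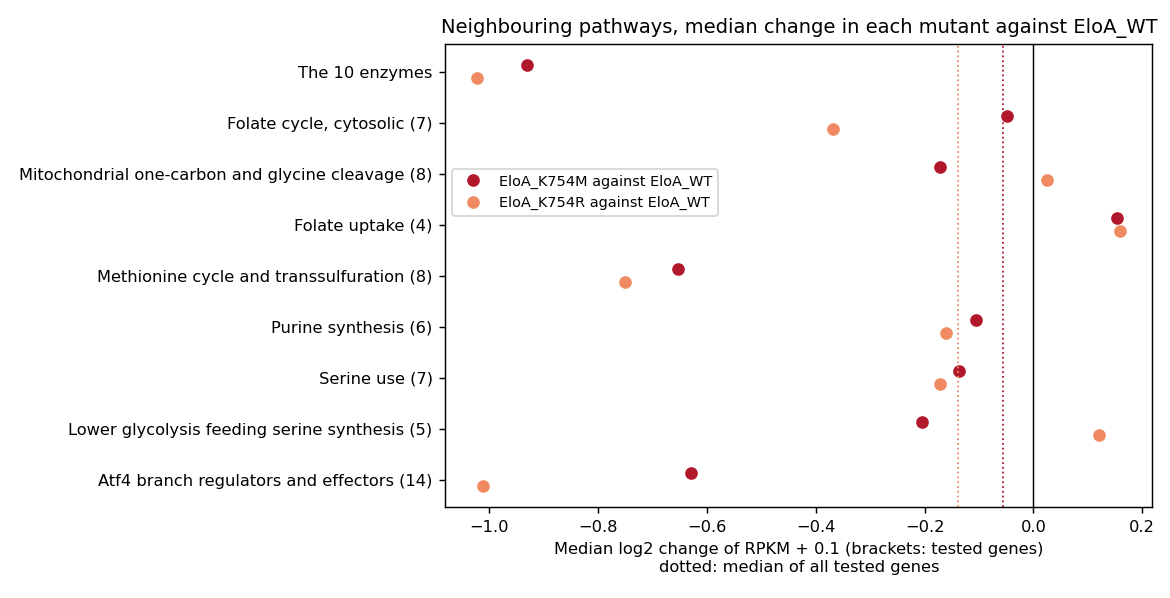
Median log2 change of RPKM plus 0.1 (horizontal axis) in EloA_K754M and EloA_K754R against EloA_WT for the 10 enzymes and for each list of neighbouring genes, with the number of tested genes in brackets; dotted lines are the medians of all tested genes. The 10 enzymes lie at −0.93 and −1.02, the Atf4 list at −0.63 and −1.01, and the other mitochondrial one-carbon genes at −0.17 and 0.02.

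Of 14 tested genes of the Atf4 branch, 1 fell in EloA_K754M and 8 fell in EloA_K754R, with medians of −0.63 and −1.01, where 0.204% and 2.79% of all tested genes fell. This list too was written with the results known, and without 1 library the 527 calls over all genes in EloA_K754R became 0 to 64. Chac1, which degrades glutathione, had 0.313 and 0.218 RPKM in EloA_K754M, 0.203 and 0.182 RPKM in EloA_K754R, and 2.01 and 2.67 RPKM in EloA_WT (log2 changes −2.74 and −3.05, limma adjusted p = 0.0264 and 0.0127). Trib3, a pseudokinase induced by Atf4, had 0.212 and 0.516 RPKM in EloA_K754M, 0.481 and 0.236 RPKM in EloA_K754R, and 2.66 and 3.47 RPKM in EloA_WT, and passed in EloA_K754R (limma adjusted p = 0.0368). Cebpg, a partner of Atf4, had 2.13 and 2.52 RPKM in EloA_K754R and 4.56 and 5.04 RPKM in EloA_WT (−1.02, limma adjusted p = 0.0370). Sesn2, Ddit3, Atf3, Atf5 and Nupr1 were the others that fell in EloA_K754R, by log2 changes of −3.27 for Nupr1 to −0.9986 for Ddit3. Atf4 itself, named after its values were seen, had 9.73 and 12.05 RPKM in EloA_K754M, 8.55 and 6.92 RPKM in EloA_K754R, and 17.1 and 12.1 RPKM in EloA_WT (log2 changes −0.41 and −0.89, limma adjusted p = 0.463 and 0.0839). Its transcription did not pass the test in either mutant, and its translation, through which it is known to be controlled, was not measured.

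The genes whose profile was most like that of Phgdh over the 8 columns were sought among 10539 genes that averaged 0.5 RPKM or more, by the root mean square distance between centred log2 profiles. The nearest was Aldh18a1, the first enzyme of proline synthesis from glutamate, at a distance of 0.192 log2 units, where the median gene was at 0.994. Aldh18a1 had 0.587 and 0.468 RPKM in EloA_K754M, 0.727 and 0.552 RPKM in EloA_K754R, 2.29 and 2.18 RPKM in EloA_WT, 1.94 RPKM in Eed_null and 1.43 RPKM in CJ7_WT, and so shared the higher value of Phgdh in Eed_null than in CJ7_WT. Next came Grb10, an adaptor of receptor tyrosine kinases, at 0.345, Jdp2, a repressor related to Atf3, at 0.381, Pck2, the mitochondrial phosphoenolpyruvate carboxykinase, at 0.383, and Slc1a5, a glutamine transporter, at 0.418. For Shmt2 the nearest genes were Rbak, a zinc finger repressor, at 0.220, the threonyl-tRNA synthetase gene Tars at 0.222, Jmjd6 at 0.229, Htatip2 at 0.237 and the mitochondrial carrier gene Slc25a11 at 0.239, where the median gene was at 0.664. Of these near genes, Grb10, Jmjd6 and Slc25a11 lie on chromosome 11. Against EloA_WT, its tested genes other than Shmt1 had median log2 changes of −0.46 in EloA_K754M and −0.56 in EloA_K754R. The part of that shift in the distances was not tested. Tars had 4.58 and 4.30 RPKM in EloA_K754M, 3.56 and 4.18 RPKM in EloA_K754R, 7.56 and 8.63 RPKM in EloA_WT, 2.72 RPKM in Eed_null and 2.44 RPKM in CJ7_WT, with the pooled columns lowest as for Shmt2. Among the enzymes themselves, Psph and Aldh1l2 had the most similar profiles (0.172), then Psat1 and Mthfd2 (0.216), each pair joining a cytosolic and a mitochondrial enzyme, while Phgdh and Shmt2 were the farthest apart (0.956). Aldh1l2 averaged 0.226 RPKM over the 8 columns, under the 0.5 RPKM asked of the genes searched. The offset of 0.1 flattens so low a profile, and the first place of its pair may depend on that offset. The profiles share their libraries, so these distances are a description.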

How the data were processed

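Nascent RNA was measured by Bru-seq in 10 mouse embryonic stem cell samples. The authors deposited 1 table of intronic RPKM for 24901 genes, with 6 columns of single libraries and 2 columns named averages of replicates, per the file header. BWA and the build mm9 are named in the submitters' processing notes. Not given in the sources used here are the counter, the annotation, the use of strand and the depth definition. Groups follow the sample titles. For Eed_null the genotype field reads EloA null, against title and column name, and the title was used.

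The members and the gene lists were chosen with earlier results of these data known. Limma 3.58.1 (R 4.3.3, eBayes with a variance trend) was run once on the 3 Elongin A groups, using log2(RPKM + 0.1) of the 15161 genes that averaged 0.1 RPKM or more. P-values are two-sided, were adjusted by Benjamini and Hochberg's method across these genes, and are read at 0.05; the residual degrees of freedom were 3 and the prior ones 2.76. "Rose", "fell" and "passed" refer to that threshold. The fit was also run on simulated data with independent normal noise, which does not address how calls depend on single libraries.

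Whole reads (within 0.001 of a read) were recovered for 20795 of 20817 genes with 6 or more columns above 0 (99.89%), and for 0 of 300 genes with jittered values, and the 2 average columns also gave whole reads. Intervals on them (Clopper-Pearson, scipy 1.17.1) cover counting error only, as reads without molecular identifiers are not independent molecules. Members were matched by symbol. Chromosomes and overlaps were taken from GENCODE vM21 by gene ID for 14308 tested genes, and promoters from RefSeq on GRCm38.p6, not the files' build. Named genes were the members, each gene of a pathway list called in a contrast with EloA_WT plus the 2 largest mean changes of each such list, and the 5 nearest profiles to Phgdh and Shmt2, unnamed gene models passed over. Some genes of the cytosolic folate list are not reported here and were left out of its counts. Alternatives were other offsets, filters and scalings, a replicate block, 2 groups alone, voom on recovered reads and leaving out each library.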

Additional observations from a re-analysis of the deposited data

How the results depend on the processing

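The direction of each enzyme gene's change against EloA_WT was the same under every alternative run, while passing the test was not. In EloA_K754M the count of 3 became 1 (Phgdh) with equal library medians, 0 when only the 2 groups were fitted, 7 with voom and 0 in every fit without 1 library. In EloA_K754R the count of 5 became 3 without a filter, with equal medians and with quantile normalization, 8 with a replicate block, 0 with the 2 groups alone, 9 with voom, and 0 to 2 without 1 library. Between the mutants it stayed at 0 in all. Over all genes the calls ranged from 2 to 344 in EloA_K754M (33 as reported), from 0 to 1777 in EloA_K754R (527) and from 5 to 456 between the mutants (44), and equal medians turned 104 higher and 423 lower in EloA_K754R into 164 and 160. With equal medians the median of all genes was 0.07 in EloA_K754M and 0.05 in EloA_K754R, in place of −0.06 and −0.14. Fits without 1 library have fewer degrees of freedom. Other causes were not tested.

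Mitochondrial minus cytosolic medians were −0.37, −0.03, 0.15 and −0.04 in EloA_K754M, EloA_K754R, between them and in Eed_null. The first became −0.17 with an offset of 1, and the first and second −0.79 and −0.76 for folate enzymes only, an alternative chosen after seeing the data. Without 1 library they ranged from −0.37 to −0.31, from −0.21 to 0.15 and from −0.19 to 0.30. Between the mutants, 3 genes changed sign: Shmt2 to −0.0046 with quantile normalization and between −0.18 (without EloA_K754R replicate 2) and 0.3183 without 1 library, Psat1 between −0.17 and 0.0094 (above 0 without replicate 2 of either mutant), and Mthfd1l between −0.3452 and 0.0324 (above 0 without EloA_K754M replicate 2 or EloA_K754R replicate 1).

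The labels do not say what the replicate numbers mark. Differences between replicates 1 and 2 correlated across genes at 0.17 to 0.20 between a mutant and EloA_WT and at 0.15 between the mutants. With the numbers as a block, 4 members in place of 3 passed in EloA_K754M (Mthfd1l added), 8 in EloA_K754R and 0 between the mutants. Over all 15161 tested genes the block passed 227, 1777 and 355 in these contrasts, in place of 33, 527 and 44. Depth limits Aldh1l2 most, at 80 to 273 reads per library.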

Other observations

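Asns, asparagine synthetase and a widely used Atf4 target, was not among the genes past the threshold, with 30.0 and 24.4 RPKM in EloA_K754M, 20.0 and 25.4 RPKM in EloA_K754R, 35.8 and 40.1 RPKM in EloA_WT, 10.0 RPKM in Eed_null and 10.8 RPKM in CJ7_WT. Its log2 changes were −0.49 and −0.75 (limma adjusted p = 0.330 and 0.0941), and like Shmt2 it was lowest in the pooled columns. It was named after its values were seen.

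Genes of the Atf4 list did not share a direction between Eed_null and CJ7_WT. The log2 ratio was negative for 8 of the 14, beside 39.3% of all tested genes, and the list's median was −0.06, beside 0.09. Chac1 had 1.18 RPKM in Eed_null and 1.83 RPKM in CJ7_WT, and Trib3 had 1.17 RPKM in Eed_null and 1.89 RPKM in CJ7_WT. Nupr1 had 0.780 RPKM in Eed_null and 0.700 RPKM in CJ7_WT, and Atf4 itself had 10.6 RPKM in Eed_null and 4.50 RPKM in CJ7_WT. These genes were picked after their values were seen, and with 1 pooled value each no difference was tested.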
